A study of Homo sapiens with 12 samples.

Results

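The genes described here code for the proteins of the cytosolic ribosome. Members were the rows of the count table whose symbol was RPL or RPS followed by a number, with or without the endings A, X, L or L1, together with RPLP0, RPLP1, RPLP2 and RPSA. Pseudogene symbols (P plus digits) were left out. This gave 84 members among 46863 gene rows: 43 of the large subunit, 31 of the small subunit, the 3 stalk genes and 7 paralogs, which are second copies of another member. RNA was taken from SU-DHL-4, an established human diffuse large B-cell lymphoma line grown from a peritoneal effusion. Cells labelled wild type were exposed for 72 h to DMSO alone, to 1 µM entospletinib (Ento, which inhibits SYK, a kinase of B-cell receptor signalling), to 0.01 µM AZD5153 (AZD, a bivalent inhibitor of the bromodomain and extra-terminal proteins) or to both agents at these doses (Ento+AZD). Each of the 4 groups had 3 libraries with the replicate numbers 1 to 3, described by the submitters as biological replicates of this single line.

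Ribosomal proteins are made in near-equal amounts and, with the ribosomal RNAs, form a small subunit that reads the mRNA and a large subunit that joins amino acids. Their mRNAs are among the most abundant of dividing cells, and most begin with a C followed by a run of pyrimidines, the terminal oligopyrimidine tract, through which growth signals control their translation. Their genes have left many processed pseudogenes in the genome, so that a short read of a ribosomal protein mRNA can match several places.

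The promoter table of RefSeq (GRCh38.p14) held an entry for 67 of the 84 members. A C at the annotated start followed by at least 4 C or T, read on the strand of the gene, was found in 43 of the 67 members (64.2%) and in 1429 of 35116 promoters of all genes (4.07%). The median pyrimidine run from the start was 7 bases over the 67 members. The windows below run from 10 bases before to 20 bases from the annotated start of members that recur in the results, with the pyrimidine run that begins at a C in capitals.
RPLP0 (chr12:120201092-120201121, minus strand): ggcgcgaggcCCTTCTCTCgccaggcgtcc
RPLP1 (chr15:69452808-69452837, plus strand): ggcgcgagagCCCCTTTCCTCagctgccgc
RPLP2 (chr11:809957-809986, plus strand): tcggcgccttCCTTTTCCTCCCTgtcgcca
RPL12 (chr9:127451387-127451416, minus strand): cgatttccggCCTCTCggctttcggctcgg
RPL28 (chr19:55385922-55385951, plus strand): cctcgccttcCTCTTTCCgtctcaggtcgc
RPL39 (chrX:119791611-119791640, minus strand): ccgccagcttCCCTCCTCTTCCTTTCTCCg
RPL22L1 (chr3:170870176-170870205, minus strand): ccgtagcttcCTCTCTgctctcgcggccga
RPSA (chr3:39406710-39406739, plus strand): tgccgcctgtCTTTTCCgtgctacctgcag
RPS3 (chr11:75399508-75399537, plus strand): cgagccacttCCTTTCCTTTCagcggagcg
RPS28 (chr19:8321486-8321515, plus strand): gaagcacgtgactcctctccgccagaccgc
RPS4X (chrX:72277229-72277258, minus strand): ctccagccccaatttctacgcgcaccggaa
RPL39 had the run of 19 bases, RPLP2 of 13, RPLP1 and RPS3 of 11. RPS28 and RPS4X began with an A at the annotated start, so that these windows held no run by this definition. A match of letters is a description of the annotated start, which was not measured in these cells.

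Total counts per library lay between 18121993 and 24675830, and a member passed the filter on low counts in 82 of 84 cases, among 16835 genes that passed. All 8 B-lineage markers searched (among them MS4A1 and PAX5) exceeded 10 CPM in every library, with a summed level between 4675 and 8603 CPM. Of 10 markers of other cell types only PECAM1 did so (11.5 to 87.3 CPM), while CD3D, HBB and KRT18 had no count. The summed level of these 10 was 17.8 to 46.5 CPM with DMSO, 36.4 to 85.1 CPM with Ento, 12.1 to 49.8 CPM with AZD and 37.2 to 88.3 CPM with Ento+AZD. Nearly all of this sum was PECAM1, as no other gene of the 10 exceeded 2.14 CPM (CD3E) in any library. Levels are counts per 1000000 reads (CPM) after TMM scaling of the library sizes, a relative measure: in such bulk RNA, fewer cells of a kind and less RNA per cell cannot be told apart.

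The 84 members together took 7.45%, 6.79% and 5.95% of all counts in DMSO replicates 1 to 3. The share was 6.90%, 7.42% and 6.72% with Ento, and 7.68%, 7.77% and 7.14% with AZD. With Ento+AZD it was 8.30%, 7.98% and 7.69%. All 3 Ento+AZD libraries lay above all 3 DMSO libraries, whereas the AZD and Ento libraries overlapped with DMSO. The group means were 6.73 ± 0.755% with DMSO, 7.01 ± 0.361% with Ento, 7.53 ± 0.342% with AZD and 7.99 ± 0.305% with Ento+AZD (SD, n = 3 each). DMSO replicate 3 was the lowest library of all, and the DMSO group was the most spread. The genes of the mitochondrial genome took 1.72 to 1.96% of counts with DMSO, 1.77 to 2.23% with Ento, 1.69 to 2.19% with AZD and 2.27 to 2.74% with Ento+AZD, so that this share, too, was higher in all Ento+AZD libraries than in those with DMSO. The part of this share, and that of the summed markers of other cell types (nearly all PECAM1), in the changes described here was not tested.

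**Figure D1:**
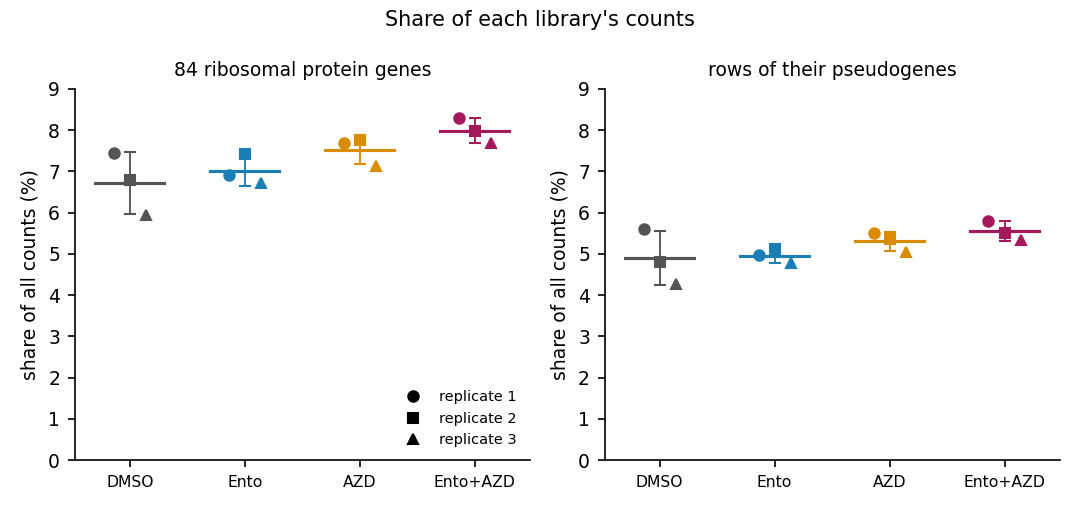
Share of all counts in percent (y axis) taken by the 84 ribosomal protein genes (left) and by the rows of their pseudogenes (right) in each library of the 4 groups (x axis). Symbols are libraries by replicate number, horizontal lines the means and bars ± SD of 3 libraries; the Ento+AZD libraries lie between 7.69 and 8.30% on the left, above the DMSO libraries at 5.95 to 7.45%.

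Scaled to the length of the canonical GENCODE transcript, members at the high end with DMSO included RPS18 (3382 ± 528 CPM per kb, SD, n = 3) and RPS20 (2986 ± 327), both of the small subunit. These levels differed by less than the spread of RPS18. At the low end of the tested members stood RPL36A (1.68 ± 0.177 CPM per kb), RPS27L (4.78 ± 0.760) and RPL39L (24.0 ± 4.97). The canonical transcript of RPS27L is 6110 bases long, which lowers its value per kb. Nearly all reads of RPL36A and its pseudogenes were counted on pseudogene rows, as described further on. RPL3L, a muscle paralog of RPL3, and RPL10L, a testis paralog of RPL10, did not pass the filter, with 18 and 53 counts over the 12 libraries (0 to 4 and 1 to 8 per library).

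Ento alone changed few members. By edgeR's quasi-likelihood test with replicate number as a block and Benjamini-Hochberg adjustment over all 16835 genes, 1 of 82 members was higher and 1 lower than with DMSO at an adjusted p under 0.05. Among all genes 4.66% were called higher and 3.66% lower (8.32% in either direction). The member that fell was RPL39L. The median log2 fold change of the members was 0.09, against 0.01 over all genes, and 73 of the 82 estimates were above 0. Without the block no member was called (0.214% of all genes). Leaving out 1 library gave 0 called members without Ento replicate 1 (2.56%), Ento replicate 2 (2.48%) or DMSO replicate 2 (7.27%). The most, 6, came without DMSO replicate 1 (7.73%).

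AZD alone gave more calls, nearly all upwards: 35 of 82 members were higher and 1, RPL39L, was lower, while 9.57% of all genes were called higher and 12.7% lower (22.2% in either direction). The 35 comprised 16 of 43 large-subunit genes, 16 of 31 small-subunit genes, 2 of 3 stalk genes and the paralog RPL22L1. The median log2 fold change was 0.21 (0.01 over all genes), and no member passed the threshold of the study for a differentially expressed gene (DEG, a change of more than 1 on the log2 scale in either direction at an adjusted p under 0.05), which 3.19% of all genes passed. In 34 members all 3 AZD libraries exceeded all 3 DMSO libraries, as in 11.7% of all genes. This count of calls depended on single libraries: 58 members were called in either direction without DMSO replicate 1 (20.6% of all genes), 19 without DMSO replicate 2 (20.2%), 8 without DMSO replicate 3 (14.2%), 6 without AZD replicate 2 (10.7%) and 6 without AZD replicate 3 (7.26%). Without the replicate block 2 members and 1.94% of all genes were called. Of these 6 fits, the fit without DMSO replicate 1 had a share of called members well above that of all genes. In the rest it was near or below that of all genes. At most 1 called member of each was lower, whereas these shares of all genes count both directions. The other single omissions left between 26 and 40 called members, where 18.3 to 24% of all genes were called.

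Ento+AZD raised the majority of the members, each by a small amount. Of 82 members, 56 were higher and 2, RPL39L and RPS27L, were lower than with DMSO, where 19.2% of all genes were called higher and 20.8% lower (40.0% in either direction). The higher members were 31 of 43 large-subunit genes, 22 of 31 small-subunit genes, 2 of 3 stalk genes and RPL22L1. The median log2 fold change was 0.28, a 1.21-fold rise, against 0.01 over all genes, and the estimates ran from -1.26 to 0.56. RPL39L was the 1 DEG among the members (8.32% of all genes were DEGs). The 3 Ento+AZD libraries lay wholly above the DMSO libraries in 45 members, as in 19.1% of all genes. Without Ento+AZD replicate 3 the calls fell to 35 (28.3% of all genes). Without the replicate block they fell to 20 (19 higher, 1 lower, where 14.2% of all genes were called in either direction). The other single omissions left between 44 and 68 called members (28.6 to 39.2% of all genes). Of the members named for this comparison, RPL39L, RPS28, RPS4X, RPLP1, RPL28 and RPS20 kept the call in the 7 other fits and in the 12 that left out 1 library. The exposures against DMSO share their 3 control libraries, so that a low DMSO library, such as replicate 3, enters all of them.

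**Figure D2:**
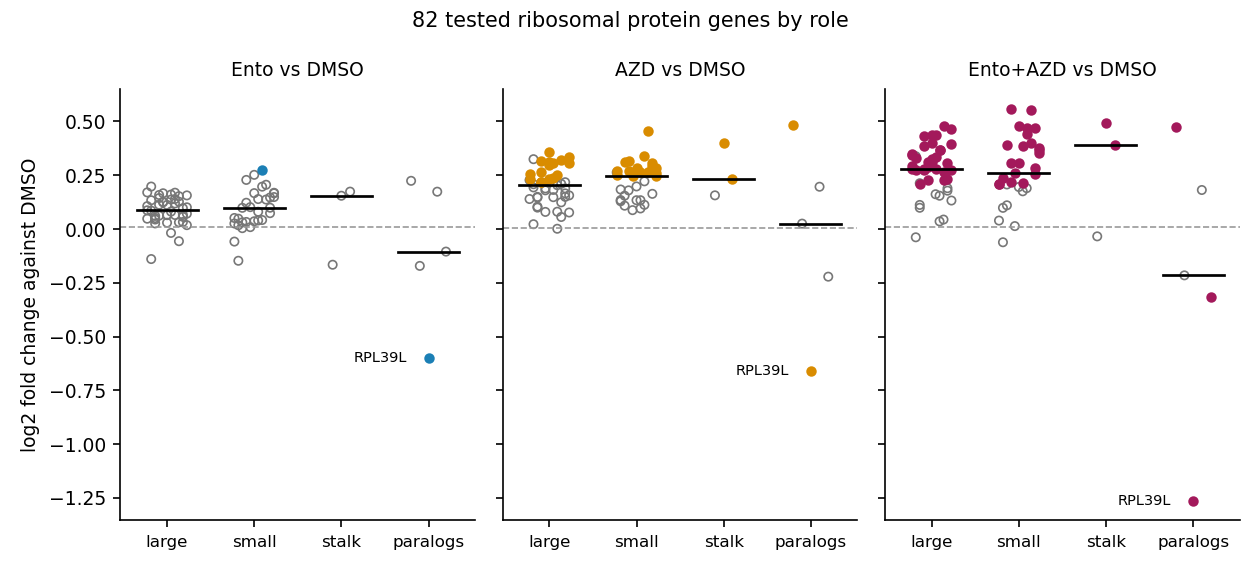
Log2 fold change of each of the 82 tested members against DMSO (y axis) by role (x axis: large subunit, small subunit, stalk, paralogs), for Ento, AZD and Ento+AZD. Filled points had an adjusted p under 0.05, open points did not, black lines are medians of the role and the dashed line is the median of all tested genes; with Ento+AZD most points of both subunits lie between 0.20 and 0.56, and RPL39L lies at -1.26.

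In the small subunit, RPS28 and RPS4X had the largest estimates. RPS28 is a small protein at the mRNA exit of the subunit. It measured 127, 121 and 109 CPM with DMSO, 133, 153 and 126 CPM with Ento, 162, 178 and 150.4 CPM with AZD and 189, 168 and 167 CPM with Ento+AZD, in the order of replicates 1 to 3. Every AZD and Ento+AZD library exceeded every DMSO library, and Ento replicate 3 lay within the range of DMSO. The log2 fold change against DMSO was 0.55 ± 0.078 (SE) with Ento+AZD and 0.46 ± 0.078 with AZD (edgeR, adjusted p = 9.77e-05 and 0.00161), and 0.21 ± 0.078 with Ento (adjusted p = 0.117). Exons of NDUFA7 and KANK3 overlap RPS28 on the opposite strand, and the library kit as named is not stated to keep the strand, so reads of these genes cannot be separated.

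RPS4X, an X-linked protein of the subunit body, was called with AZD and Ento+AZD as well. Its levels were 1128, 1137 and 875 CPM with DMSO, 1134, 1446 and 1104 CPM with Ento, 1226, 1481 and 1197 CPM with AZD and 1542, 1608 and 1455 CPM with Ento+AZD. The Ento+AZD libraries lay above all DMSO libraries and Ento replicate 2 stood above the other Ento libraries. It changed by 0.56 ± 0.084 with Ento+AZD and 0.32 ± 0.084 with AZD on the log2 scale (edgeR, adjusted p = 0.000168 and 0.017). The AZD call was lost without the replicate block (0.218) and without AZD replicate 2 (0.0834), AZD replicate 3 (0.0903) or DMSO replicate 3 (0.0656).

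RPS20, a small-subunit protein, rose with AZD and Ento+AZD. RPS20 had 1702, 1582 and 1366 CPM with DMSO, 1774, 1770.4 and 1762 CPM with Ento, 2063, 1994 and 1811 CPM with AZD and 2294, 2121 and 2006 CPM with Ento+AZD, and in each exposure all libraries exceeded those of DMSO. Its log2 fold change was 0.34 ± 0.074 with AZD and 0.47 ± 0.074 with Ento+AZD (edgeR, adjusted p = 0.00619 and 0.000237), and 0.20 ± 0.074 with Ento, which did not pass (adjusted p = 0.114).

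RPSA, which binds laminin as well as the ribosome, was called neither with a single agent nor with Ento+AZD. It had 528, 409 and 413 CPM with DMSO, 443, 347 and 429 CPM with Ento, 557, 412 and 512 CPM with AZD and 488, 357 and 453 CPM with Ento+AZD. Replicate 2 was the lowest library in every group and all groups overlapped. The log2 fold change of Ento+AZD against DMSO was -0.062 ± 0.077, with a 95% interval of -0.23 to 0.10 (adjusted p = 0.553). RPS19, whose mutation causes Diamond-Blackfan anaemia, had a log2 fold change of 0.014 ± 0.079 in that comparison (95% interval -0.16 to 0.18).

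**Figure D3:**
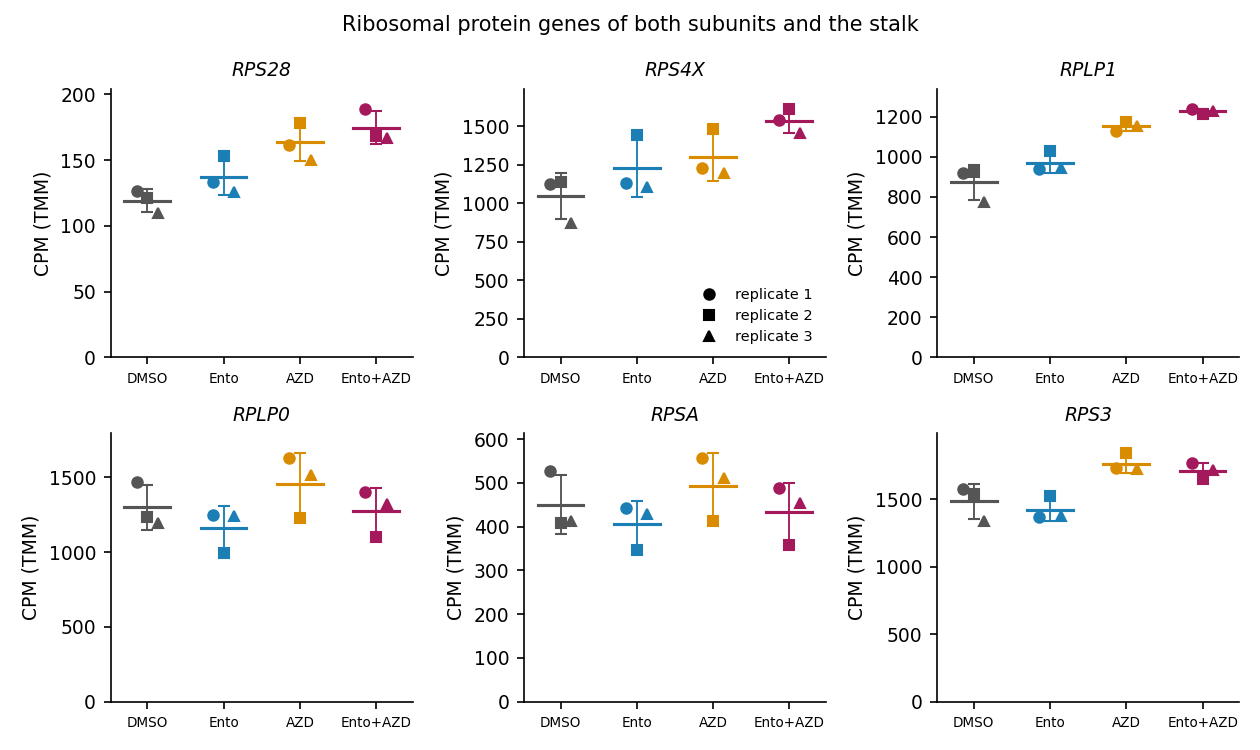
Level in CPM after TMM scaling (y axis, from 0) of 6 members in each library of the 4 groups (x axis). Symbols are libraries by replicate number, lines the means and bars ± SD of 3 libraries; RPS28, RPS4X and RPLP1 are above all DMSO libraries in each Ento+AZD library, while RPLP0 and RPSA overlap across the groups.

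Of the large subunit, RPL28, RPL12 and RPL36 were among the members with the smallest adjusted p. RPL28 had 1197, 1171 and 1020.0 CPM with DMSO, 1232, 1331 and 1200.3 CPM with Ento, 1364, 1474 and 1386 CPM with AZD and 1623, 1526 and 1556 CPM with Ento+AZD. Each Ento+AZD library exceeded each library of the other groups. Against DMSO its log2 fold change was 0.48 ± 0.075 (edgeR, adjusted p = 0.000227) with Ento+AZD, and 0.32 ± 0.075 (adjusted p = 0.00864) with AZD, the latter call being lost without AZD replicate 2 (0.0513) or AZD replicate 3 (0.0598). RPL12, at the base of the stalk, measured 389, 348 and 336 CPM with DMSO, 383, 365 and 379 CPM with Ento, 474, 412 and 439.9 CPM with AZD and 498, 451 and 463 CPM with Ento+AZD. The Ento libraries fell inside the DMSO range and the AZD and Ento+AZD libraries above it. Its log2 fold change was 0.31 ± 0.067 with AZD and 0.40 ± 0.067 with Ento+AZD (edgeR, adjusted p = 0.00624 and 0.000384), against 0.072 ± 0.067 with Ento. For RPL36 the levels were 901, 902 and 792 CPM with DMSO, 823, 1033 and 867 CPM with Ento, 1073, 1169 and 1082 CPM with AZD and 1151, 1181 and 1177 CPM with Ento+AZD, and its log2 fold change was 0.36 ± 0.079 with AZD (edgeR, adjusted p = 0.0065). RPL36 shares exon positions with HSD11B1L on its own strand and LONP1 on the other. Its Ento+AZD value was 0.44 ± 0.079 (adjusted p = 0.000635). Without the replicate block the AZD calls of RPL28, RPL12, RPL36 and RPS20 were lost (adjusted p = 0.0784, 0.0862, 0.0804 and 0.0921).

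The 12 large-subunit genes that were not called with Ento+AZD had log2 fold changes from -0.038 (RPL17) to 0.34 (RPL36A). Their pseudogene rows, described further on, held from none of the reads (RPL24, log2 fold change 0.10) or 0.191% (RPL30, 0.15) to 99.8% (RPL36A). RPL5, which with RPL11 holds the p53 regulator MDM2 when ribosome assembly is disturbed, had 0.16 ± 0.072 (95% interval 0.0076 to 0.32) and RPL11 had 0.39 ± 0.081 (adjusted p = 0.00181); these 2 genes were chosen for their role after the values had been seen, as were RPL24, RPL30 and RPS19.

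The 3 stalk genes, whose proteins recruit the translation factors, were described one by one, and with Ento+AZD RPLP1 and RPLP2 were called higher and RPLP0 was not. RPLP1 measured 921, 925 and 773 CPM with DMSO, 938, 1029.7 and 946 CPM with Ento, 1127, 1172 and 1154 CPM with AZD and 1238, 1212 and 1227 CPM with Ento+AZD. All libraries with AZD, alone or with Ento, lay above both the DMSO and the Ento libraries. On the log2 scale it rose by 0.40 ± 0.076 with AZD and 0.49 ± 0.076 with Ento+AZD (edgeR, adjusted p = 0.00291 and 0.000203). RPLP2 had 975, 978 and 867 CPM with DMSO, 1000.5, 1138 and 1042 CPM with Ento, 1061, 1163 and 1089 CPM with AZD and 1273, 1187 and 1230.3 CPM with Ento+AZD. Its exposed libraries all exceeded the DMSO libraries, with a log2 fold change of 0.39 ± 0.076 with Ento+AZD (edgeR, adjusted p = 0.0011). RPLP0, the scaffold that anchors RPLP1 and RPLP2, had 1469, 1235 and 1192 CPM with DMSO, 1246, 994 and 1243 CPM with Ento, 1625, 1226 and 1513 CPM with AZD and 1401, 1099 and 1319 CPM with Ento+AZD. Every group overlapped with DMSO, and replicate 2 was the lowest library with Ento, AZD and Ento+AZD. Its log2 fold changes were -0.17 ± 0.080 with Ento, 0.16 ± 0.080 with AZD and -0.034 ± 0.080 with Ento+AZD (95% interval -0.21 to 0.14), none of which passed (adjusted p = 0.219, 0.175 and 0.764).

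The paralogs were the most diverse class. RPL39L, a paralog of RPL39 known for its expression in male germ cells and in tumour lines, had the largest change of any member and was called in each of the 5 comparisons of an exposure with DMSO or of Ento+AZD with a single agent. It measured 21.4, 14.3 and 16.7 CPM with DMSO, 14.4, 6.70 and 14.5 CPM with Ento, 15.6, 7.0 and 11.6 CPM with AZD and 9.64, 4.96 and 7.73 CPM with Ento+AZD. In each replicate number the DMSO library was the highest and the Ento+AZD library the lowest, and replicate 2 was the lowest of each group. The Ento+AZD libraries lay below all DMSO libraries, whereas the single agents overlapped with DMSO. Its log2 fold change was -0.60 ± 0.14 with Ento, -0.66 ± 0.14 with AZD and -1.26 ± 0.15 with Ento+AZD (edgeR, adjusted p = 0.0174, 0.00551 and 2.57e-05). Ento+AZD was also lower than Ento (-0.66 ± 0.15, adjusted p = 0.00711) and lower than AZD (-0.60 ± 0.15, adjusted p = 0.0204). The call of Ento+AZD against DMSO was kept in the 7 other fits and in the 12 that left out 1 library, with an adjusted p of at most 0.0382, which was reached without the replicate block. Without that block the other 4 calls were lost (adjusted p = 0.565 with Ento, 0.331 with AZD, 0.314 against Ento and 0.504 against AZD). The Ento call was also lost without Ento replicate 1 (0.104), Ento replicate 2 (0.118) or DMSO replicate 2 (0.0563), that against Ento without Ento replicate 3 (0.0683), and that against AZD without AZD replicate 1 (0.119) or Ento+AZD replicates 1, 2 or 3 (0.0709, 0.0553 and 0.065).

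RPL39 itself, a small protein that lines the exit tunnel of the large subunit, rose with Ento+AZD. It had 288, 259 and 206 CPM with DMSO, 269, 332 and 244 CPM with Ento, 289, 325 and 251 CPM with AZD and 333, 337 and 294 CPM with Ento+AZD. The Ento+AZD libraries were above all DMSO libraries, and the log2 fold change was 0.37 ± 0.085 (edgeR, adjusted p = 0.0037; 0.112 without the replicate block). Per kb, RPL39 stood at 643 ± 107 CPM and RPL39L at 24.0 ± 4.97 CPM with DMSO. With Ento+AZD they stood at 824 ± 61.5 and 10.2 ± 3.23 CPM per kb (SD, n = 3). These values leave out the pseudogene row RPL39P3, which had 77515 counts over the 12 libraries, against 73222 for RPL39 itself.

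RPS27L, a paralog of RPS27 that p53 induces, had 33.5, 24.3 and 29.8 CPM with DMSO, 27.6, 22.5 and 31.2 CPM with Ento, 27.8, 23.6 and 23.3 CPM with AZD and 26.2, 20.4 and 23.6 CPM with Ento+AZD. All groups overlapped, but within each replicate number the Ento+AZD library was below that of DMSO. With Ento+AZD the log2 fold change was -0.32 ± 0.10 (edgeR, adjusted p = 0.0204). This call was lost without the block (0.166), with the length and GC offset (0.0955) and without DMSO replicate 1 (0.076), Ento+AZD replicate 1 (0.0584) or Ento+AZD replicate 3 (0.0811). Its parent RPS27 rose from 194, 165 and 124 CPM with DMSO to 234, 230.1 and 203 CPM with Ento+AZD, without overlap of the libraries (log2 fold change 0.48 ± 0.089, edgeR, adjusted p = 0.000822; 0.0684 without the block).

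RPL22L1, the paralog of the RNA-binding protein RPL22, was the only paralog called higher. Its levels were 246, 208 and 157 CPM with DMSO, 243, 237 and 228 CPM with Ento, 285, 284 and 277 CPM with AZD and 311, 230.1 and 303 CPM with Ento+AZD. The AZD libraries lay above all DMSO libraries and within 10 CPM of each other, whereas Ento+AZD replicate 2 fell inside the DMSO range. Its log2 fold change was 0.48 ± 0.12 with AZD and 0.47 ± 0.12 with Ento+AZD (edgeR, adjusted p = 0.0125 and 0.00657). These calls were lost without the block (0.114 and 0.056), the first also without AZD replicate 2 (0.0679) or 3 (0.0645) and the second without Ento+AZD replicate 3 (0.0547). RPL22 had log2 fold changes of 0.22 ± 0.071 with AZD and 0.28 ± 0.071 with Ento+AZD, and its exons overlap those of RNF207 on the other strand.

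RPL26L1 and RPL7L1, paralogs of RPL26 and RPL7, were called in no comparison. RPL26L1 had 28.3, 22.2 and 20.9 CPM with DMSO and 23.3, 16.5 and 21.9 CPM with Ento+AZD. Its log2 fold change was -0.22 ± 0.11 (95% interval -0.44 to 0.0093), where RPL26 had 0.31 ± 0.079 (edgeR, adjusted p = 0.00669; 0.0912 without the block and 0.0562 without Ento+AZD replicate 3). RPL7L1 measured 156, 173 and 157 CPM with DMSO and 185, 176 and 189 CPM with Ento+AZD, which differed by 0.18 ± 0.074 on the log2 scale (adjusted p = 0.0658), and RPL7 had 0.19 ± 0.076 (adjusted p = 0.059). The parents RPL3 and RPL10 of the paralogs below the filter rose with Ento+AZD, by a log2 fold change of 0.28 ± 0.071 and 0.34 ± 0.077 (edgeR, adjusted p = 0.00638 and 0.00297).

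**Figure D4:**
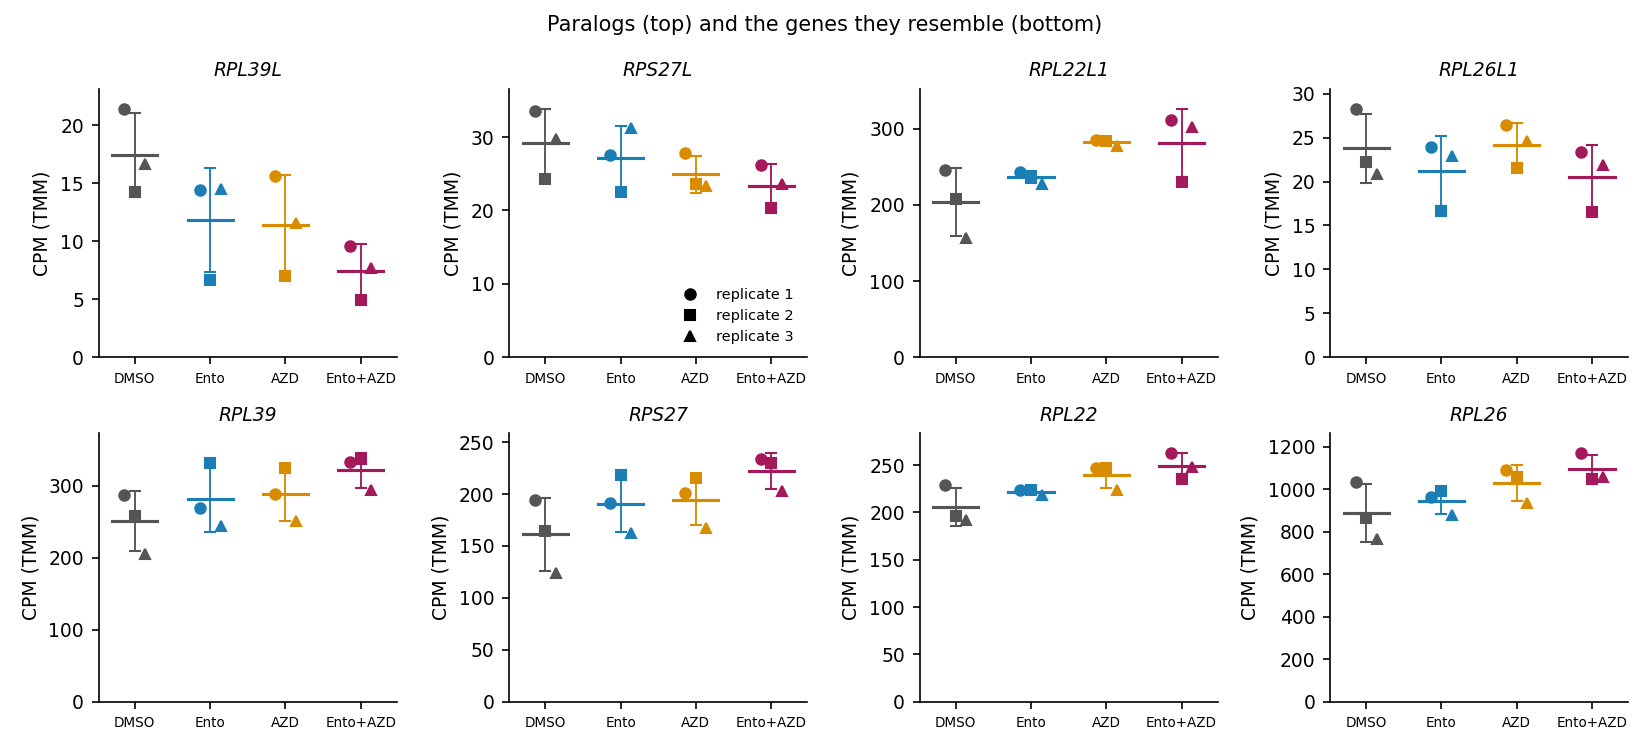
Level in CPM after TMM scaling (y axis, from 0) of 4 paralogs (top row) and of the genes they resemble (bottom row) in each library of the 4 groups (x axis). Symbols are libraries by replicate number, lines the means and bars ± SD of 3 libraries; RPL39L falls from 14.3 to 21.4 CPM with DMSO to 4.96 to 9.64 CPM with Ento+AZD, while RPL39 lies higher with Ento+AZD than with DMSO in every library.

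Ento+AZD was also set against each single agent. Against Ento, 24 of 82 members were higher and RPL39L was lower, with 8.27% of all genes called higher and 12.2% lower (20.4% in either direction), and a median log2 fold change of 0.19. The smallest adjusted p values were those of RPL12 (0.32 ± 0.067), RPL36 (0.37 ± 0.079) and RPS28 (0.35 ± 0.078; edgeR, adjusted p = 0.00409, 0.00485 and 0.00646), in all of which the libraries did not overlap. Without the block these calls were lost (0.0895, 0.0909 and 0.117) and that of RPS28 also without Ento replicate 1 (0.058). The number of called members depended on the libraries: it was 3 without Ento replicate 1 (10.5% of all genes), 6 without Ento replicate 3 (8.13%), 6 without Ento+AZD replicate 1 (11.9%), 4 without Ento+AZD replicate 3 (10.9%) and 16 without AZD replicate 2 (17.6%). The share of members called was near or below that of all genes in these 5 fits, where the latter counts both directions and at most 1 member was lower. The other single omissions left between 19 and 36 called members, where 16.8 to 23.7% of all genes were called. No member was called without the replicate block (1.22% of all genes), and 52 were called with the length and GC offset (23.6%).

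Against AZD, no member was higher and RPL39L alone was lower by edgeR's test, where 5.85% of all genes were called higher and 6.04% lower (11.9% in either direction). At an unadjusted p under 0.05 there were 7 of 82 members and 4720 of 16835 genes. DESeq2 called 2 members and 13.5% of all genes. The median log2 fold change was 0.08. RPS4X had an estimate of 0.24 ± 0.084 (95% interval 0.065 to 0.42, adjusted p = 0.0729). RPLP0 and RPSA had lower estimates, of -0.19 ± 0.080 and -0.19 ± 0.077 (adjusted p = 0.135 and 0.12), and both were lower than with AZD alone in all 3 replicate numbers. The count of calls was 0 without the replicate block (0.101% of all genes) and without AZD replicate 1 (3.44%). It was also 0 without Ento+AZD replicate 1, 2 or 3 (4.96, 6.1 and 6.52%). Without DMSO replicate 1 it was 3 (13.3%) and without DMSO replicate 3 it was 5 (15.2%).

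AZD and Ento were compared with each other directly. Here 9 of 82 members were higher with AZD and none was lower, where 5.73% of all genes were called higher and 8.99% lower (14.7% in either direction), and the median log2 fold change was 0.12. At an unadjusted p under 0.05 there were 19 of 82 members and 4899 of 16835 genes. DESeq2 called 11 members, all higher, and 13.5% of all genes in either direction. RPLP0 had the smallest adjusted p: with the levels given above, its log2 fold change was 0.32 ± 0.080 (edgeR, adjusted p = 0.0148), higher with AZD in all 3 replicate numbers although the libraries of the groups overlapped. RPS3, which guards the mRNA entry of the small subunit, measured 1371, 1525 and 1381 CPM with Ento and 1732, 1844 and 1723 CPM with AZD, without overlap, beside 1575, 1544 and 1338 CPM with DMSO. Its log2 fold change was 0.31 ± 0.077 (edgeR, adjusted p = 0.015). RPL36 (0.29), RPSA (0.28) and RPL12 (0.23) followed, and the remaining calls were RPS2, RPLP1, RPL27 and RPS28. The 9 calls of 82 (11%) are a smaller share than the 14.7% of all genes called in either direction, and a larger one than the 5.73% called higher. No member was called without the replicate block (3.2% of all genes), Ento replicate 1 (7.64%) or AZD replicate 3 (6.67%). The count was 1 without Ento replicate 3 (7.01%), AZD replicate 1 (11.1%) or AZD replicate 2 (8.06%). It was 4 without Ento replicate 2 (10%).

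Whether the joint change differed from the sum of the single changes was tested by the interaction of Ento and AZD. By edgeR's test no member had an interaction at an adjusted p under 0.05, and 0% of all genes were called. At an unadjusted p under 0.05 there were 0 of 82 members and 1652 of 16835 genes. DESeq2 called no member and 0.0604% of all genes. The median interaction of the members was -0.02 on the log2 scale, and the 95% interval of a member reached 0.242 to either side of its estimate at the median (0.201 to 0.781). An interaction smaller than this could not be told from 0 with 3 libraries a group. The smallest adjusted p values belonged to RPL7L1 (-0.19, 95% interval -0.41 to 0.036), RPS10 (-0.28, -0.66 to 0.11), RPL22L1 (-0.23, -0.60 to 0.13), RPS28 (-0.11, -0.34 to 0.13) and RPS2 (-0.087, -0.30 to 0.13). All of these intervals include 0.

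The genes of translation and other mRNAs that begin with a pyrimidine tract were described from a list of 50, of which 49 were tested. None was called with Ento. With AZD 10 were higher and 3 lower, and with Ento+AZD 12 were higher and 8 lower, at a median log2 fold change of 0.12 and 0.067. Over all genes 9.57% were called higher and 12.7% lower with AZD, and 19.2% and 20.8% with Ento+AZD, so that the counts with Ento+AZD lay near the background. Those higher with Ento+AZD included the elongation factors EEF1A1 (0.29), EEF1D (0.43) and EEF2 (0.32) and the ribosome-bound scaffold RACK1 (0.38). TPT1, which codes for an abundant tumour-associated protein, measured 4015, 3384 and 2462 CPM with DMSO and 4897, 5129 and 4506 CPM with Ento+AZD, without overlap, a log2 fold change of 0.58 ± 0.10 (edgeR, adjusted p = 0.000658).

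Among those that fell, EIF4EBP1, the repressor of cap-dependent translation, had 39.9, 44.4 and 49.2 CPM with DMSO, 34.0, 34.0 and 42.5 CPM with Ento, 40.2, 34.0 and 41 CPM with AZD and 29.0, 26.5 and 31.0 CPM with Ento+AZD. Each Ento+AZD library lay below every library of the other groups, and the log2 fold change against DMSO was -0.62 ± 0.089 (edgeR, adjusted p = 0.000112). The host gene SNHG1, a noncoding RNA with a pyrimidine tract, had -0.55 ± 0.080 (adjusted p = 0.000132), whereas GAS5, another such host gene, was higher (0.33 ± 0.076, adjusted p = 0.00379). VIM, coding for vimentin, was the 1 gene of the list that met the DEG threshold, at -2.34 ± 0.52. It lay near the floor, at 1.99, 0.687 and 2.08 CPM with DMSO and 0.391, 0.143 and 0.395 CPM with Ento+AZD. Its row passed the filter on low counts mostly through the DMSO libraries, where it was highest, so no result is drawn from this call.

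The members with and without a C and pyrimidine run at the annotated start were set side by side. Among the 43 with the run and tested, the median log2 fold change with Ento+AZD was 0.28 and 28 were called higher, and among the 23 without it the median was 0.28 and 16 were called higher. With AZD the medians were 0.20 and 0.23, with 16 and 13 members called higher. Over all genes 19.2% were called higher with Ento+AZD and 9.57% with AZD. The medians and counts are given without a test.

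Reads of near-identical copies limit what the members' own rows hold. Rows of 1441 pseudogenes were listed for 76 of the 84 members, and they took 4.28 to 5.81% of all counts per library. Of the reads on members and pseudogene rows together, the pseudogene rows held 42.1 ± 0.714% with DMSO, 41.4 ± 0.538% with Ento, 41.4 ± 0.49% with AZD and 41 ± 0.167% with Ento+AZD (SD, n = 3). For 25 members more than 50% of the reads lay on pseudogene rows, and for 20 members with at least 1 such row less than 10% did. The share of a member differed between the 4 groups by 0.329 percentage points at the median and by at most 3.0 percentage points. How the counting treated reads that match several places is not given in the sources used here.

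The most affected member was RPL36A, with 376 counts over the 12 libraries. Of the reads of RPL36A and its pseudogenes 99.8% lay on pseudogene rows, 169149 of them on RPL36AP37. RPL17 (98.1%), RPS10 (97.6%), RPS26 (96.1%) and RPL41 (90.7%) followed. RPS10 measured 18.9, 13.5 and 12.2 CPM with DMSO and 14.7, 15.5 and 15.5 CPM with Ento+AZD on its own row. Whether the reads on pseudogene rows came from the members' own mRNA was not tested. The readthrough genes RPL17-C18orf32 and RPL36A-HNRNPH2, which span these members, had no count, and RPS10-NUDT3 had 8. The values of these 5 members, and of RPS28 with a share of 89.4% on pseudogene rows, are therefore uncertain. The same limit holds for the other members with large shares, among them RPS27 (86.0%), RPL7 (84.3%) and RPSA (75.4%). RPL39L, RPS27L, RPL22L1 and RPL26L1 had no pseudogene row of their own name. Whether their reads were shared with the genes they resemble, or with copies of these, was not tested.

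When the counts of the pseudogene rows were added to their members, 61 of 82 members were called with Ento+AZD against DMSO (59 higher, 2 lower), 35 with AZD and 2 with Ento, where this fit called 40.3%, 22.7% and 8.8% of all genes. RPS28 then had a log2 fold change of 0.60 with Ento+AZD, RPL36A of 0.37 and RPS26 of 0.36, and RPLP0 and RPSA remained near 0, at -0.027 and -0.045.

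**Figure D5:**
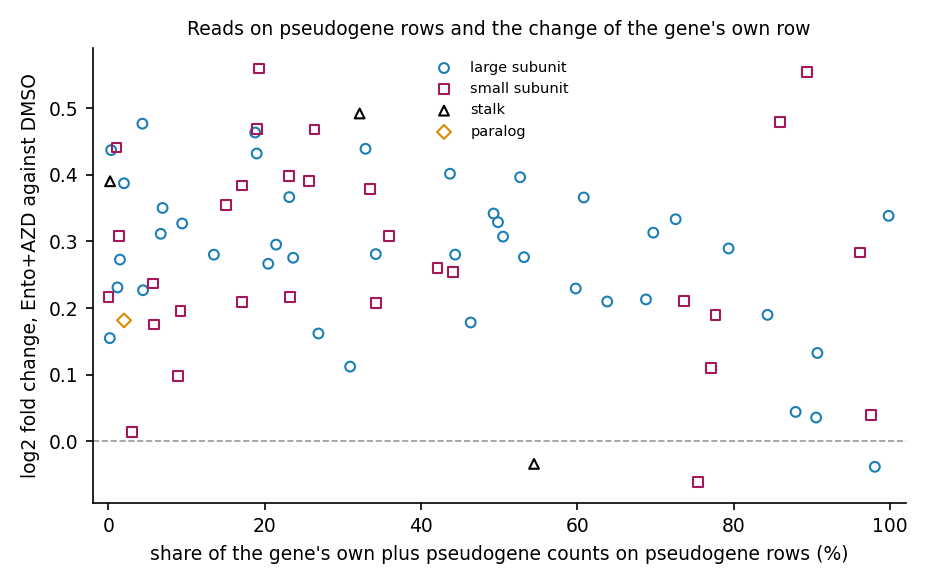
For the 76 tested members with at least 1 pseudogene row, the share of the reads of the gene and its pseudogenes that lay on pseudogene rows (x axis, percent) against the log2 fold change of the gene's own row with Ento+AZD against DMSO (y axis). Symbols mark the role and the dashed line no change; members with small and with large shares are found among the higher estimates, and the 3 estimates below 0 had shares of 54.5, 75.4 and 98.1%.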

How the data were processed

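Polyadenylated RNA of the SU-DHL-4 line was sequenced by the submitters as single 75-base reads in 4 groups of 3 libraries. Before deposit the authors merged the lanes, removed adapters (CutAdapt, TrimGalore), used GRCh38.p13 as the genome and Rsubread for the counts; bcl2fastq 2.19 is named in the submitters' processing notes. The deposited values used here are raw counts, whole numbers of reads for 46863 symbols, with 18121993 to 24675830 counts per library. Counting settings are not given in the sources used here. A deposited table of log2 values was not used.

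In R 4.3.3, edgeR 4.0.16 (with limma 3.58.1) was run on the counts: filterByExpr by group (minimum count 10, minimum total 15), TMM, 1 model of the 12 libraries with group and replicate number and no intercept, the quasi-likelihood F-test of 7 contrasts and Benjamini-Hochberg adjustment over 16835 genes at 0.05. Groups and replicate numbers came from the sample labels. Libraries of 1 number deviated together (correlation 0.213 to 0.703 over 18 pairs, all over 0.1, against -0.627 to 0.325 over 36 pairs of different numbers), so the numbers were treated as pairing the libraries. Libraries of a group differed by more than sampling noise (chi-square per degree of freedom 9.07 to 54.3). P-values rest on the spread between cultures of 1 line that is left after differences between replicate numbers are taken out. The SE of a log2 fold change is its size over the root of the F statistic.

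The script was tested on simulated counts without replicate effects, with changed genes drawn from all tested genes and not from the members. For Ento+AZD against DMSO it called 7 of 97 genes given a log2 change of 0.3 and 78 of 98 given a change of 1. It also called 7 unchanged genes. Alternatives were the model without replicate number, DESeq2 1.42.0 size factors, the DESeq2 test, no filter, TMM factors without ribosomal protein genes and pseudogenes, pseudogene counts added to the members, a length and GC offset, and leaving out each library. Coordinates, lengths and exon overlaps are from GENCODE v44 (GRCh38), with a length for all 84 members and 86.6% of tested genes. Figures were drawn with matplotlib 3.10.9.

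The members and lists were chosen with earlier results of these data known. Named were the members called as DEGs, the 5 called members with the smallest adjusted p in each direction against DMSO, the 5 smallest in AZD against Ento and in the interaction, the 3 highest and 3 lowest per kb, the paralogs with their parents, the stalk genes, RPSA and the 5 with the largest pseudogene share. Of the pathway list of 50, EEF1A1, EEF1D, EEF2, RACK1 and GAS5 were named after their values were seen. Some genes that these rules name are not reported here.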

Additional observations from a re-analysis of the deposited data

How the results depend on the processing

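Counts of called members depended on the replicate block, on the length and GC offset and on single libraries. Without the block, 0 members were called with Ento against DMSO (0.214% of all genes), 2 with AZD (1.94%) and 20 with Ento+AZD (14.2%). None was called in Ento+AZD against Ento (1.22%), in Ento+AZD against AZD (0.101%) or in AZD against Ento (3.2%). Of 67 calls of named members 51 were lost and none changed direction. With the length and GC offset and the block, Ento had 1 called member (8.82% of all genes). There were 52 in Ento+AZD against Ento (23.6%), 2 in Ento+AZD against AZD (12.2%) and 18 in AZD against Ento (18.3%). The median interaction turned from -0.017 to 0.014. Without the filter 4 were called with Ento (7.43% of all genes) and 3 in Ento+AZD against AZD (8.81%). In the latter comparison the DESeq2 test called 2 (13.5%). DESeq2 size factors, TMM factors without ribosomal protein genes and the added pseudogene counts left each count within 1.5 times its value.

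Leaving out 1 library gave 0 to 6 called members with Ento (2.48 to 9.8% of all genes). With AZD it gave 6 to 58 (7.26 to 24%) and with Ento+AZD 35 to 68 (28.3 to 39.2%). Ento+AZD against Ento had 3 to 36 (8.13 to 23.7%) and against AZD 0 to 5 (3.44 to 15.2%). AZD against Ento had 0 to 13 (6.67 to 17.6%), and the interaction had 0 (0 to 1.23%). The median interaction ran from -0.091 to 0.051. The median log2 fold change over the members stayed above 0 in the other comparisons, from 0.02 to 0.17 with Ento, 0.16 to 0.27 with AZD and 0.21 to 0.35 with Ento+AZD. The causes were not tested. With 3 libraries a group, changes as small as the median ones were called for some members and missed for others. Reads that may be lost to pseudogene copies limit the members with large pseudogene shares.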
